A study of Mus musculus with 12 samples.

Results

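The genes described here are 97 heat shock proteins, chaperones and protein-folding enzymes, out of 9539 genes that carried a single symbol in the deposited table of 12 mouse arrays. They were chosen by name alone: the symbol begins with Hsp, Dnaj, Pdia, Cryab, Hyou1, Calr or Canx, with Cct, Fkbp or Bag and a digit, or with Ppi and a letter. Each was read by 1 of the 10360 probe sets, and 1 probe set that carries a further symbol beside Dnajb14 was left out. The 97 hold 35 J-domain proteins, 12 members of the HSP70 and HSP110 family, 11 FKBP and 10 cyclophilin prolyl isomerases, 9 chaperonin subunits, 6 small heat shock proteins, 6 lectin chaperones and disulfide isomerases, 3 BAG proteins and Hsp90aa1. The other 4 match by name: Hspbap1, which binds a small heat shock protein, Hspg2, which encodes the matrix protein perlecan, and the inositol phosphate kinases Ppip5k1 and Ppip5k2. Hspa5 and Hsp90b1, the main HSP70 and HSP90 of the endoplasmic reticulum (ER), are not among the tested genes and were not analysed here.

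RNA was compared between 4 groups of mouse cells, 3 arrays each, in a study of reprogramming with Oct4 and Tet1. The induced pluripotent stem (iPS) cells were line OT#b at passage 10, made with Oct4 and Tet1 in an OG2-GFP/Rosa26-M2rtTA background. The embryonic stem (ES) cells were line R1 at passage 20, of strain 129. Both were grown with LIF on mouse embryonic fibroblasts treated with mitomycin C, and the protocol describes a short replating of ESCs to remove these feeder cells. The day-1 cells were fibroblasts at passage 3 from OT-iPSC mice, kept for 1 day in ES medium with doxycycline, which acts through the rtTA transactivator, also in an OG2-GFP/Rosa26-M2rtTA background. The untreated fibroblasts were at passage 3 as well, and the strain labels of their 3 arrays read OG2-GFP/Rosa26-M2rtTA, OG2-GFP/Rosa26-M3rtTA and OG2-GFP/Rosa26-M4rtTA. The iPS group is a single line, and strain, passage and line differ together between iPS and ES cells, as do doxycycline, medium and source of the cells between day-1 cells and fibroblasts. Whether the 3 arrays of each group stand for separate cultures is not stated, so the p-values measure the spread between these samples, which may be technical.

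Chaperones bind unfolded proteins and keep them from aggregating until they reach their native form. HSP70 proteins bind and release clients in a cycle driven by ATP, J-domain proteins bring clients to HSP70 and stimulate its ATPase, and BAG and HSP110 proteins exchange its nucleotide. HSP90 acts later on kinases, receptors and other nearly folded clients, together with partner proteins that include several FKBP and cyclophilin isomerases. Chaperonins enclose a client in a ring-shaped chamber, small heat shock proteins hold unfolded proteins without ATP, and the ER has its own lectins, disulfide isomerases and prolyl isomerases for secreted proteins such as collagen. Heat shock factor 1 drives many of the cytosolic genes from paired GAA and TTC units in their promoters, and the unfolded protein response drives many of the ER genes.

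The labelled cell types were checked against markers. Pou5f1, which encodes Oct4, had log2 values of 12.01, 12.04 and 11.96 on the iPS arrays, 12.36, 12.37 and 12.36 on the ES arrays, and 11.85, 11.73 and 11.81 on the day-1 arrays, against 4.96, 5.24 and 4.91 on the fibroblast arrays. Nanog averaged 12.59 ± 0.05 in iPS cells, 12.25 ± 0.19 in ES cells, 6.31 ± 0.11 in day-1 cells and 6.12 ± 0.13 in fibroblasts (SD, n = 3 each). All 9 pluripotency markers were measured, and their mean log2 value per array was 11.65 to 11.69 in iPS cells, 11.89 to 12.03 in ES cells, 6.08 to 6.18 in day-1 cells and 5.12 to 5.39 in fibroblasts. The mean of 12 of 12 fibroblast markers was 8.80 to 8.92 in iPS cells, 7.74 to 8.23 in ES cells, 11.03 to 11.10 in day-1 cells and 11.38 to 11.66 in fibroblasts. For 8 of 9 proliferation markers it was 10.83 to 10.84 in iPS cells, 11.08 to 11.11 in ES cells, 9.93 to 10.02 in day-1 cells and 8.26 to 8.64 in fibroblasts. The 7 of 8 macrophage markers measured had means of 6.01 to 6.04 in iPS cells, 5.86 to 5.95 in ES cells, 7.13 to 7.31 in day-1 cells and 7.41 to 7.62 in fibroblasts. Of these 7, Laptm5 was called higher and 5 lower in iPS and in ES cells than in fibroblasts. For 2 of 5 endothelial markers the means were 7.77 to 7.85 in iPS cells and 7.47 to 7.60 in ES cells. They were 5.74 to 5.82 in day-1 cells and 5.46 to 5.80 in fibroblasts. Of the 2, Pecam1 averaged 9.19 in iPS cells, 8.24 in ES cells and 5.23 in fibroblasts, and Tek 6.45, 6.80 and 6.10. For 3 of 6 skeletal muscle markers the means were 7.64 to 7.82 in iPS cells and 6.80 to 7.01 in ES cells. They were 7.29 to 7.45 in day-1 cells and 6.26 to 6.45 in fibroblasts. No value in the table is 0. Replicate arrays correlated across genes with r from 0.988 to 0.997, and array medians were 7.98 to 8.06 in iPS cells, 7.89 to 7.98 in ES cells, 8.25 to 8.29 in day-1 cells and 8.25 to 8.29 in fibroblasts.

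Members went both ways in the pluripotent cells. Hsp90aa1, its isomerases Fkbp4, Fkbp5 and Ppid, chaperonins and mitochondrial matrix members had higher values there than in fibroblasts. So had the members grouped here for work at the ribosome. Most small heat shock proteins and ER members had lower values. A gene is called here when its limma p, adjusted by Benjamini-Hochberg over 9539 genes, is under 0.05 and its difference is at least 2-fold, which is 1 on the log2 scale. Between iPS cells and fibroblasts, 29 of 97 members (29.9%) were called higher and 17 (17.5%) lower, where 21.8% of all genes were called higher and 29.6% lower. Between ES cells and fibroblasts, 27 members (27.8%) were called higher and 22 (22.7%) lower, against 23.4% and 32.1% of all genes. The median difference of the 97 was 0.52 for iPS cells and 0.46 for ES cells, and that of all genes was -0.35 in both. In bulk RNA, fewer cells of a type and less RNA per cell cannot be told apart. Between iPS and ES cells only 6 members (6.19%) were called higher and 0 lower, with 4.44% and 2.45% of all genes called, and the medians were 0.04 for members and 0.01 for all genes. By the adjusted p of limma alone, 32 members (33.0%) were higher and 18 (18.6%) lower in iPS than in ES cells. Over all 9539 genes, 2858 were higher and 2644 lower by that measure. At an unadjusted p under 0.05, 32 members were higher and 20 lower.

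Between day-1 cells and fibroblasts 0 of 97 members were called by limma in either direction, with 3.46% of all genes called higher and 4.33% lower. Their differences ran from -0.99 to 0.94, with a median of 0.08 where all genes had 0.05. By the adjusted p alone, 34 members (35.1%) were higher and 18 (18.6%) lower, against 31.1% and 26% of all genes, and at an unadjusted p under 0.05 there were 37 and 19. Between iPS and day-1 cells, 23 members (23.7%) were called higher and 17 (17.5%) lower, against 17.6% and 26.6% of all genes. The comparisons share arrays, so their counts are not independent of each other.

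These splits depend on how arrays are scaled, since the median of all genes lies below 0 in the deposited values. With quantile normalization between arrays, the median of all genes was -0.18 for iPS cells and -0.12 for ES cells against fibroblasts, and with arrays centred on a common median it was -0.10 and -0.00. The share of called members that were higher in iPS cells than in fibroblasts was 63.0% as deposited (42.4% over all genes), 78% after quantile normalization (39 higher, 11 lower; all genes 52.0%) and 79.2% after centring (38 and 10; all genes 55.9%). For ES cells against fibroblasts these shares were 55.1%, 65.5% (38 and 20) and 70.2% (40 and 17), with 42.2%, 53.0% and 58.7% over all genes. Between iPS and day-1 cells they were 57.5%, 78.0% (32 and 9) and 78.6% (33 and 9), with 39.8%, 51.2% and 55.3% over all genes.

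**Figure D1:**
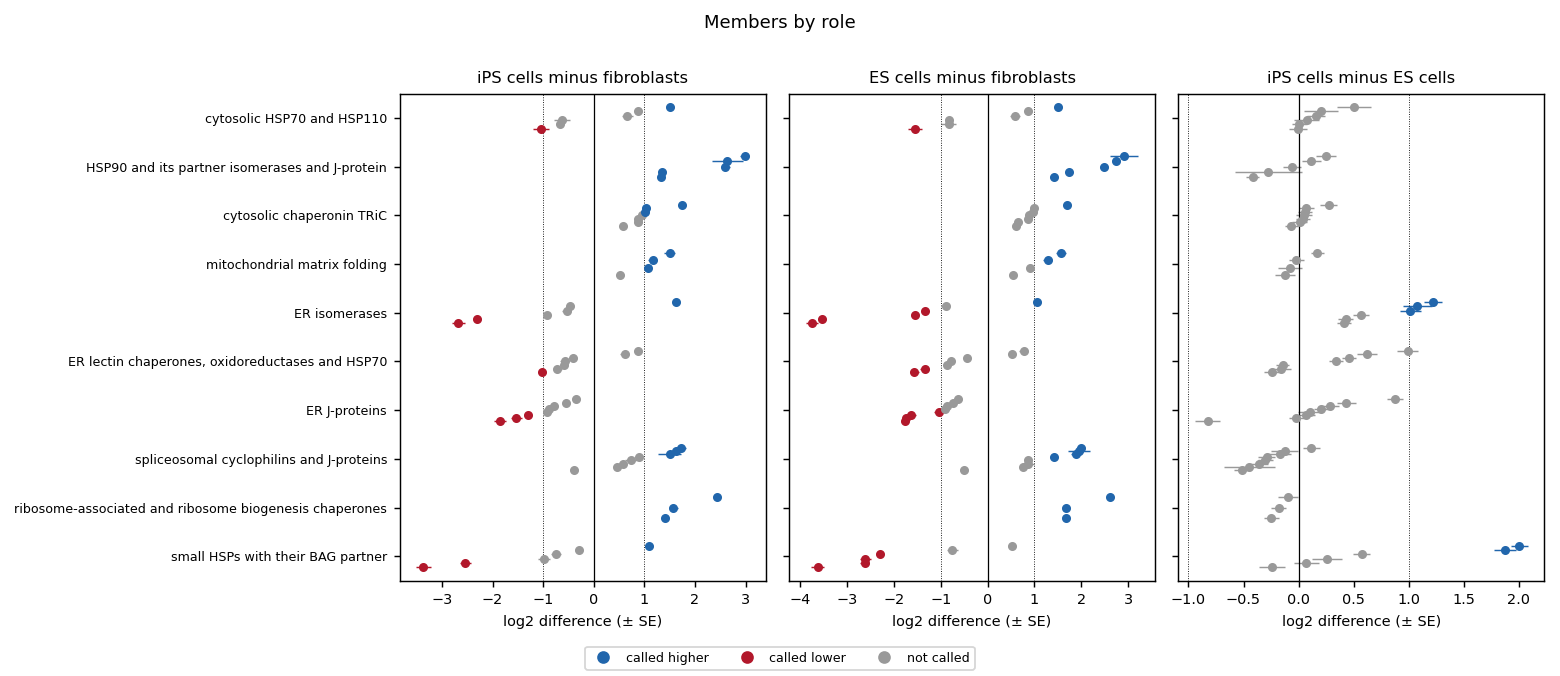
Log2 difference (± SE) of members grouped by role, for iPS cells minus fibroblasts, ES cells minus fibroblasts and iPS minus ES cells; dotted lines mark 2-fold and colours mark calls. All 5 genes of the HSP90 group lie right of the 2-fold line in the left and middle panels, and most small heat shock proteins and ER genes lie left of 0; in the right panel 5 of the 6 members called higher are shown and no member shown is called lower.

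Promoter windows of 300 bases, from 250 before to 50 after the annotated start, were read from RefSeq (GRCm38.p6) for 79 of the 97 members. Heat shock units facing each other, GAANNTTC with N for any base, which reads the same on both strands, stood in the windows of 17 members (21.5%) and of 9.04% of 27025 genes. Counted over windows, since a gene can have several, the shares were 18.3% of 104 member windows and 7.86% of 32851. A further unit 2 bases away, making 3 alternating units on either strand, was found for Calr4, Dnajb6, Hspd1, Hspe1 and Hsph1, which is 5 members (6.33%) against 0.662% of genes, and 6.73% against 0.603% of windows. Every window with 3 units is also counted for facing units. The ER stress element, CCAAT, any 9 bases and CCACG on either strand, was found for Calr, Calr4, Canx, Dnajc3 and Pdia6, also 5 members (6.33%), against 0.137% of genes, and 4.81% against 0.119% of windows. These are letter matches, described and not tested, and windows that lack them say nothing of the factors that bind such elements.

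Among cytosolic HSP70 and HSP110 proteins 1 gene of 6 was called higher in pluripotent cells in the deposited values, and Hspa4 and, in iPS cells, Hspa8 passed 2-fold under other scalings. The gene called was Hsph1, an HSP110 nucleotide exchange factor for HSP70, with values of 11.17, 11.13 and 11.16 on the iPS arrays, 11.21, 11.22 and 11.04 on the ES arrays, 9.44, 9.51 and 9.52 on the day-1 arrays and 9.81, 9.54 and 9.59 on the fibroblast arrays. Both pluripotent groups lay above every day-1 and fibroblast array. The difference from fibroblasts was 1.51 ± 0.08 (SE) in both iPS cells (limma adjusted p = 8.53e-10) and ES cells (6.73e-10), and day-1 cells differed from fibroblasts by -0.15. Its promoter is shown because it holds 3 alternating heat shock units, in capitals, from position 36 after the start.
Hsph1, chr5:149636287-149636386, minus strand: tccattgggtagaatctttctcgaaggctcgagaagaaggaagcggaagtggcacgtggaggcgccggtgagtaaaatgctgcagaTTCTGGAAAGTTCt

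Hspa8, the constitutive cytosolic HSP70, had 12.66, 12.72 and 12.57 on the iPS arrays, 12.51, 12.62 and 12.58 on the ES arrays, 11.69, 11.92 and 12.05 on the day-1 arrays and 11.86, 11.85 and 12.23 on the fibroblast arrays. Its groups of pluripotent cells and fibroblasts did not overlap, but the differences of 0.66 in iPS cells and 0.59 in ES cells were under 2-fold as deposited. After quantile normalization the iPS difference of Hspa8 was 1.06, a call, and after centring it was 0.92. Hspa4, a further HSP110 gene, stood at 0.88 in iPS cells and 0.87 in ES cells as deposited. It was a call in iPS cells after quantile normalization (1.13) and centring (1.13), and likewise in ES cells (1.13 and 1.22). Hspa1a, the stress-inducible HSP70, which has a near-identical copy that the probes may not tell apart, averaged 6.94 ± 0.11 in iPS cells, 6.78 ± 0.02 in ES cells, 7.29 ± 0.03 in day-1 cells and 7.60 ± 0.14 in fibroblasts (SD, n = 3 each). It differed from fibroblasts by -0.66 in iPS cells, -0.82 in ES cells and -0.31 in day-1 cells, all under 2-fold. Hspa2, known for its role in spermatogenesis, was called lower in iPS cells (-1.04 ± 0.16) and in ES cells (-1.55 ± 0.16). Without iPS replicate 2 the iPS difference of Hspa2 was -0.90 and no longer a call, nor was it after quantile normalization (-0.84) or centring (-0.79). Among atypical HSP70 proteins, Hspa12a was lower in both (-1.55 ± 0.16 in iPS cells, -1.68 ± 0.16 in ES cells) and Hspa12b was called lower in ES cells alone (-1.11 ± 0.14), a call lost without fibroblast replicate 2 (-0.95), after quantile normalization (-0.99) and after centring (-0.76), with -0.86 in iPS cells and 0.25 ± 0.14 between iPS and ES cells. Against fibroblasts, 21.8% of all genes were called higher and 29.6% lower in iPS cells, and 23.4% and 32.1% in ES cells. Over all 12 measured HSP70 and HSP110 genes of the 15 on the list, 3 were called higher and 2 lower in iPS cells. In ES cells 2 of the 12 were called higher and 4 lower. Their median of -0.01 in iPS cells turned to 0.23 after quantile normalization and 0.24 after centring, and that of -0.11 in ES cells to 0.23 after either, so the direction of the family's median depends on the scaling.

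Hsp90aa1 and 4 genes for proteins that bind it or HSP70 were called higher in pluripotent cells. These 5 genes were put together after values were seen, and on a wider list of partners 5 of 14 measured genes were called higher and 2 lower in each pluripotent group. The 5 are Hsp90aa1, the inducible cytosolic HSP90, the partner isomerases Fkbp4, Fkbp5 and Ppid, which bind HSP90 through tetratricopeptide repeats, and Dnajc7, a J-domain protein with such repeats. All 5 were called higher in iPS cells and all 5 in ES cells against fibroblasts, with medians of 2.60 and 2.48, and all 5 in iPS against day-1 cells, with a median of 1.70. Between iPS and ES cells none of the 5 was called.

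Hsp90aa1 had 11.00, 12.29 and 11.77 on the iPS arrays, 11.74, 12.13 and 12.02 on the ES arrays, 10.05, 9.94 and 9.98 on the day-1 arrays and 8.38, 9.58 and 9.19 on the fibroblast arrays. Replicates were further apart here than for most members, with an SD of 0.65 in iPS cells and 0.61 in fibroblasts, yet the pluripotent groups lay above all day-1 arrays and these above all fibroblast arrays. The difference from fibroblasts was 2.64 ± 0.30 (SE; limma adjusted p = 1.78e-06) in iPS cells and 2.92 ± 0.30 (adjusted p = 6.03e-07) in ES cells.

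Fkbp4, the isomerase FKBP52, had 11.56, 11.58 and 11.56 on the iPS arrays, 11.27, 11.30 and 11.39 on the ES arrays, 9.36, 9.32 and 9.41 on the day-1 arrays and 8.80, 8.49 and 8.46 on the fibroblast arrays. It was 7.91-fold higher in iPS cells (2.98 ± 0.09; limma adjusted p = 3.27e-12) and 6.66-fold higher in ES cells (2.73 ± 0.09). Fkbp5, its relative FKBP51, had 10.42, 10.47 and 10.37 on the iPS arrays, 10.32, 10.31 and 10.27 on the ES arrays, 8.47, 8.42 and 8.43 on the day-1 arrays and 7.61, 7.84 and 8.0 on the fibroblast arrays, and differed by 2.60 ± 0.09 in iPS cells and 2.48 ± 0.09 in ES cells. For both isomerases the order of groups was pluripotent, day-1 and fibroblast with no overlap between these levels. Ppid (cyclophilin 40) differed by 1.35 ± 0.08 in iPS cells and 1.41 ± 0.08 in ES cells. Dnajc7 differed by 1.32 ± 0.06 in iPS cells and 1.74 ± 0.06 in ES cells. The promoter of Fkbp4, the member with the highest difference between iPS cells and fibroblasts, holds facing heat shock units, in capitals, at position -151.
Fkbp4, chr6:128438754-128438853, minus strand: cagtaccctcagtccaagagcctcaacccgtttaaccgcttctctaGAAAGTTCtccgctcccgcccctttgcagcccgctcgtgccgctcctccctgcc

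A wider list of 23 HSP90 and HSP70 partners had 14 measured genes, 6 of them members. In iPS cells 5 were called higher, 2 lower (Bag2 and Bag3) and 7 neither against fibroblasts, in ES cells also 5, 2 and 7, and between iPS and ES cells 0 were called. Outside the 97, Ptges3, the HSP90 partner p23, was higher in iPS cells (1.65) and in ES cells (1.80). Unc45a, a partner that acts on myosin, differed by -0.60 in iPS cells and -0.88 in ES cells. The mitochondrial HSP90, Trap1, the other measured gene of 4 on the HSP90 list, differed from fibroblasts by 1.32 in iPS cells and 1.20 in ES cells, both called. The proliferation markers given above are also highest in both pluripotent groups and lowest in fibroblasts, and their part in the HSP90 result was not tested.

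**Figure D2:**
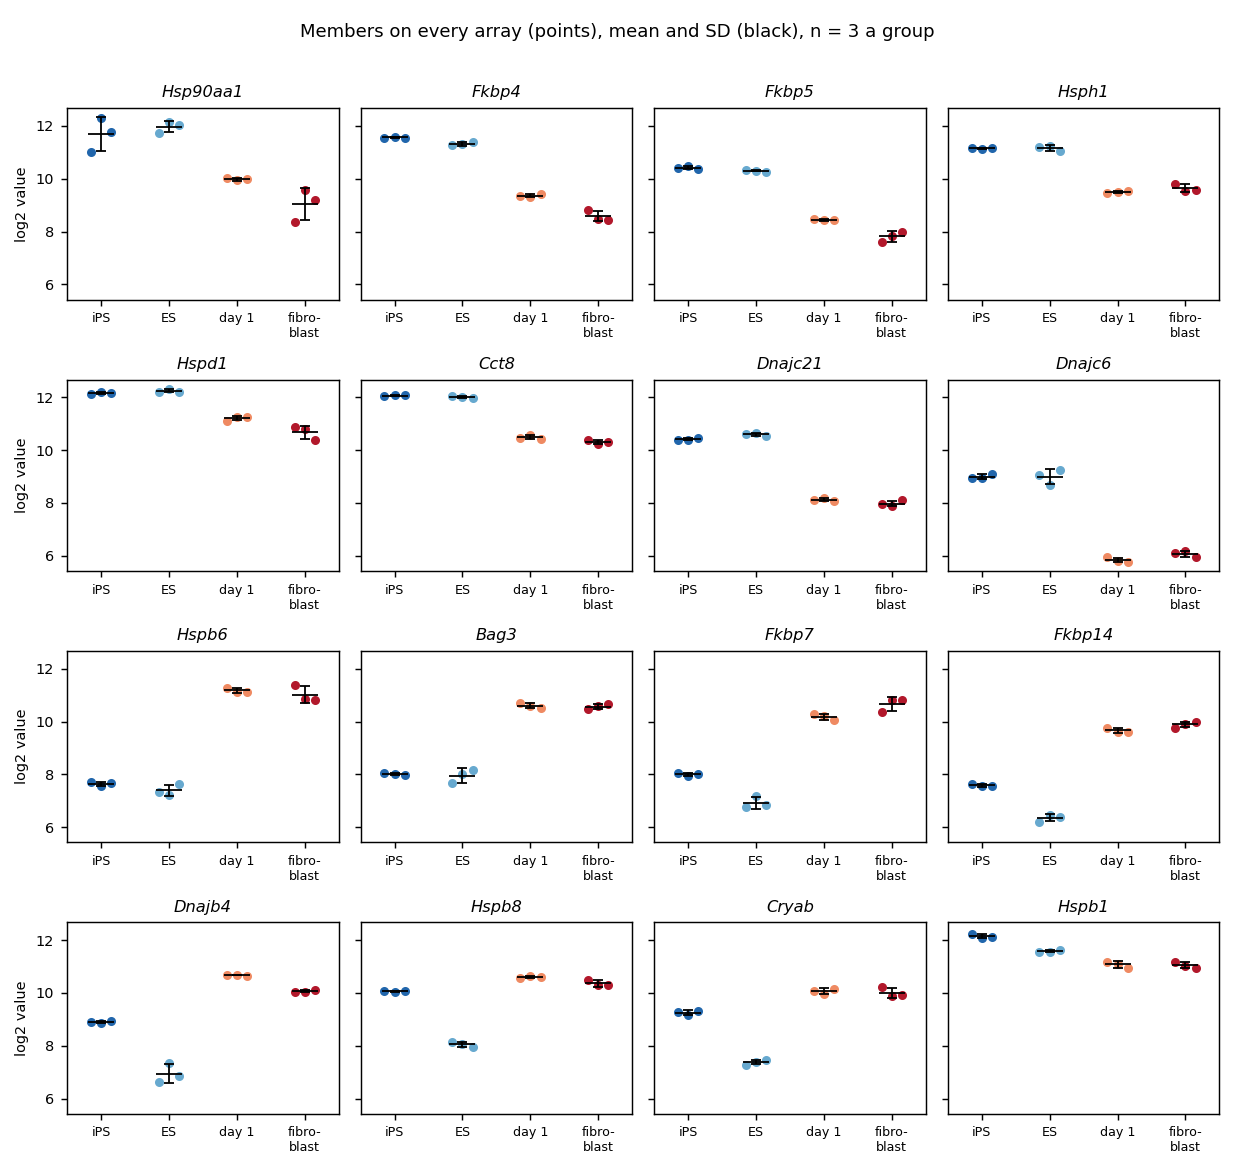
Log2 values of 16 members on every array, in iPS cells, ES cells, day-1 cells and fibroblasts; points are arrays, black bars the mean and SD, n = 3 a group. Fkbp4, Fkbp5, Hspd1, Cct8 and Dnajc21 are high in both pluripotent groups, Hspb6 and Bag3 are low in both, and Dnajb4, Hspb8 and Cryab are lower in ES cells than in iPS cells.

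TRiC, the cytosolic chaperonin that folds actin and tubulin, had higher mean values in pluripotent cells for each measured subunit, mostly by less than 2-fold. Of 7 subunits among the members, 7 had a positive difference from fibroblasts in iPS cells, from 0.58 (Cct2) to 1.75 (Cct8), and 7 in ES cells, from 0.60 (Cct3) to 1.70 (Cct8). Called higher were 3 in iPS cells, Cct8, Cct7 (1.03 ± 0.07) and Cct6a (1.02 ± 0.07), and Cct8 in ES cells. The calls of Cct7 and Cct6a in iPS cells rest on the minimum of 2-fold: the difference was 0.98 without iPS replicate 2 for Cct7 and 0.96 without fibroblast replicate 2 for Cct6a. In ES cells both subunits stood at 0.98, and both were calls without fibroblast replicate 1 (1.03 for Cct7, 1.02 for Cct6a), as was Cct7 without ES replicate 2 (1.01) and Cct6a without ES replicate 1 (1.00). Cct8, the theta subunit, had 12.04, 12.07 and 12.07 on the iPS arrays, 12.03, 12.01 and 11.98 on the ES arrays, 10.47, 10.57 and 10.43 on the day-1 arrays and 10.37, 10.24 and 10.31 on the fibroblast arrays, with the pluripotent groups well apart from the other cells. With Tcp1, the alpha subunit, the chaperonin list had 11 of 14 genes measured, with 6 called higher in iPS cells, 4 in ES cells and 0 lower in either. Between iPS and ES cells the 7 subunits differed by -0.06 to 0.27, with 0 calls. After quantile normalization 8 of the 9 chaperonin members were called higher in iPS cells and 7 in ES cells, against 5 and 3 as deposited. Hspe1 and Hspd1 count among the 9. Prefoldin, which hands actin and tubulin to TRiC, had 4 of 8 subunits measured, with Pfdn6 called higher in iPS cells (1.63) and Pfdn6 (1.69) and Vbp1 (1.05) in ES cells.

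Mitochondrial matrix chaperones were higher as well. Hspd1 and Hspe1, the HSP60 and HSP10 of the mitochondrial chaperonin, lie head to head on chromosome 1, and the annotated start of Hspe1 is 216 bases from that of Hspd1, or 95 bases from a further Hspd1 start. Their promoter windows overlap by 285 bases, or by 4 for that further start, so the same letters are counted for both genes. The shared stretch is shown from the Hspe1 side, with 4 alternating heat shock units in capitals, which make 2 overlapping matches, from position -89.
Hspe1, chr1:55087898-55088197, plus strand: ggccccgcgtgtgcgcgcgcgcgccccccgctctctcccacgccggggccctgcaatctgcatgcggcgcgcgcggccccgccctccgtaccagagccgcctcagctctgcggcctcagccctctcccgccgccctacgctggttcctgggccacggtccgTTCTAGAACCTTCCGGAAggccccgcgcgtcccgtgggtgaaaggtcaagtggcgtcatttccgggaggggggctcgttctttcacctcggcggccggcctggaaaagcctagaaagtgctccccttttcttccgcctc

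Hspd1 had 12.13, 12.22 and 12.17 on the iPS arrays, 12.20, 12.33 and 12.22 on the ES arrays, 11.11, 11.25 and 11.25 on the day-1 arrays and 10.86, 10.78 and 10.38 on the fibroblast arrays. Hspe1 had 10.53, 10.53 and 10.63 on the iPS arrays, 10.66, 10.64 and 10.76 on the ES arrays, 9.74, 9.78 and 9.94 on the day-1 arrays and 9.57, 9.40 and 9.23 on the fibroblast arrays. For both genes the 3 levels, pluripotent, day-1 and fibroblast, did not overlap. Hspd1 differed from fibroblasts by 1.5 ± 0.11 in iPS cells and 1.58 ± 0.11 in ES cells (SE; limma adjusted p = 1.32e-08 and 6.8e-09), and Hspe1 by 1.16 ± 0.09 and 1.28 ± 0.09. Hspa9, the matrix HSP70 mortalin, was called higher in iPS cells (1.07 ± 0.06) and stood at 0.90 ± 0.06 in ES cells, a call there after quantile normalization (1.20) and centring (1.25). Dnaja3, its J-domain partner, had 0.52 and 0.54 and was not called. Dnajc11, a J-domain protein of the inner membrane organising system, was higher in iPS cells (1.28 ± 0.08) and ES cells (1.44 ± 0.08). On a list of 15 mitochondrial quality control genes, 10 were measured, 3 of them members. Of the 10, 6 were called higher in iPS cells and 5 in ES cells, where 21.8% and 23.4% of all genes were. The protease Lonp1 led the genes outside the 97, with 1.76 in iPS cells and 1.53 in ES cells. Htra2, a protease of the intermembrane space, went the other way, called lower in ES cells (-1.73) and at -0.87 in iPS cells.

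Grouped here for work at the ribosome, after values were seen, are 3 members, and other members may act there too. All 3 were called higher, in iPS cells as in ES cells. They are Dnajc2, or MPP11, and Hspa14, which together form the ribosome-associated complex, and Dnajc21, a factor of ribosome biogenesis. Dnajc21 had 10.39, 10.38 and 10.46 on the iPS arrays, 10.59, 10.64 and 10.55 on the ES arrays, 8.12, 8.18 and 8.08 on the day-1 arrays and 7.95, 7.89 and 8.10 on the fibroblast arrays. Day-1 and fibroblast arrays overlapped, and the pluripotent groups lay far above them, by 2.43 ± 0.07 in iPS cells and 2.62 ± 0.07 in ES cells (SE, against fibroblasts; limma adjusted p = 3.23e-12 and 1.09e-12). Dnajc2 differed by 1.58 ± 0.09 and 1.67 ± 0.09, and Hspa14 by 1.42 ± 0.07 and 1.67 ± 0.07.

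Cyclophilins and J-domain proteins of the spliceosome formed a similar group of 8. Of these, 3 were called higher in iPS cells, 4 in ES cells and 0 lower in either. Over all genes 21.8% were called higher in iPS cells and 23.4% in ES cells, with 29.6% and 32.1% lower. Ppil1, a cyclophilin of the spliceosome, averaged 9.79 ± 0.09 in iPS cells, 9.96 ± 0.06 in ES cells, 8.71 ± 0.07 in day-1 cells and 8.06 ± 0.24 in fibroblasts (SD, n = 3 each). Dnajc8 had 10.61, 10.62 and 10.50 on the iPS arrays, 10.84, 10.98 and 10.99 on the ES arrays, 8.38, 8.57 and 8.61 on the day-1 arrays and 9.02, 8.92 and 8.90 on the fibroblast arrays, so its lowest values were in day-1 cells. Ppih was called higher in iPS cells (1.5 ± 0.23) and ES cells (1.95 ± 0.23), and its values were 8.13, 8.10 and 7.92 on the iPS arrays, 8.70, 8.19 and 8.60 on the ES arrays, 5.28, 6.32 and 6.27 on the day-1 arrays and 6.29, 6.70 and 6.64 on the fibroblast arrays. Ppil4 was called in ES cells (1.41 ± 0.08) and stood at 0.90 in iPS cells, where it was a call after quantile normalization (1.14) and centring (1.15). Ppil2 had a difference below 0 in both (-0.38 and -0.50). Ppia, cyclophilin A, the cytosolic target of ciclosporin, whose many processed copies in the genome the probes may also read, stood at 0.92 in iPS cells and 0.88 in ES cells. Under quantile normalization Ppia was a call in both (1.28 in iPS cells, 1.24 in ES cells), as it was under centring (1.17 and 1.23).

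Cytosolic and nuclear J-domain proteins went both ways. Dnajc6, or auxilin, which recruits HSP70 to strip clathrin from vesicles, had 8.93, 8.94 and 9.10 on the iPS arrays, 9.06, 8.68 and 9.24 on the ES arrays, 5.94, 5.80 and 5.78 on the day-1 arrays and 6.12, 6.17 and 5.96 on the fibroblast arrays. Both pluripotent groups lay above every other array, and day-1 arrays lay below every fibroblast array. The difference from fibroblasts was 2.91 ± 0.12 in both iPS cells (limma adjusted p = 6.6e-11) and ES cells (4.75e-11). Dnajb6, which holds back aggregation of polyglutamine proteins, had 8.44, 7.99 and 7.93 on the iPS arrays, 8.33, 8.38 and 8.36 on the ES arrays, 5.66, 6.13 and 5.55 on the day-1 arrays and 6.78, 6.85 and 6.70 on the fibroblast arrays. It was called higher in iPS cells (1.34 ± 0.15) and ES cells (1.58 ± 0.15) than in fibroblasts, and day-1 arrays lay below all fibroblast arrays. Its promoter is shown for its 3 alternating heat shock units, in capitals, from position -46.
Dnajb6, chr5:29735808-29735907, plus strand: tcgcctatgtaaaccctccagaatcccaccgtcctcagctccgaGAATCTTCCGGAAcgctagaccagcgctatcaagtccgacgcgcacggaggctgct

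Dnaja1, a main cytosolic partner of HSP70, was called higher in ES cells (1.10 ± 0.10) and stood at 0.94 in iPS cells, a call under either scaling (1.19), while Dnaja2 (0.56 and 0.53) and Dnajb1, the inducible HSP40 (0.63 and 0.53), were not called. Dnajc9, a histone chaperone, was called in iPS cells (1.19 ± 0.10) and ES cells (1.20 ± 0.10). Dnajb2, found with ubiquitylated clients, was called lower in both, and its iPS difference of -1.0 ended under 2-fold without iPS replicate 2 (-0.99), iPS replicate 3 (-0.95) or fibroblast replicate 3 (-0.96). Under quantile normalization and centring the iPS difference of Dnajb2 was -0.83 and -0.75, no call, and the ES call was lost after centring (-0.96). Dnajb3 was called lower in iPS cells (-1.11 ± 0.12), a call lost without iPS replicate 3 (-0.95) and after centring (-0.86). Dnajb13 (1.25 ± 0.08) and Dnajc22 (1.14 ± 0.11) were called higher in iPS cells. Dnajb13 averaged 6.12 in iPS cells and 4.87 in fibroblasts, Dnajc22 6.32 and 5.18, and Dnajb3 4.33 and 5.44. These levels are low, under every array median (at least 7.89). Dnajc25 (-1.19 ± 0.10) was called lower in iPS cells, a call lost after quantile normalization (-0.96) and centring (-0.94). In ES cells Dnajc13 (1.54 ± 0.23) and Dnajc27 (1.41 ± 0.09) were called higher and Dnaja4 (-1.58 ± 0.12) lower. Over all 35 J-domain genes, 10 were called higher and 7 lower in iPS cells, and 11 and 7 in ES cells. Of all genes, 21.8% were called higher and 29.6% lower in iPS cells, and 23.4% and 32.1% in ES cells. The J-domain median of -0.22 in iPS cells became 0.03 under either scaling, and that of -0.08 in ES cells became 0.26.

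Small heat shock proteins and their partner Bag3 mostly had lower values in pluripotent cells, and most were called lower in ES cells alone. Of 6 genes, Hspb1, Hspb6, Hspb7, Hspb8, Cryab and Bag3, 2 were called lower and 1 higher in iPS cells, against fibroblasts. The 2 were Hspb6 and Bag3. In ES cells 4 were called lower and 0 higher. Over all genes 29.6% were called lower and 21.8% higher in iPS cells, and 32.1% and 23.4% in ES cells. Hspb6, a small heat shock protein of muscle, had 7.72, 7.57 and 7.67 on the iPS arrays, 7.35, 7.20 and 7.63 on the ES arrays, 11.29, 11.13 and 11.12 on the day-1 arrays and 11.37, 10.87 and 10.81 on the fibroblast arrays. It was 10.3-fold lower in iPS cells (-3.37 ± 0.14 SE; limma adjusted p = 6.68e-11) and 12.3-fold lower in ES cells (-3.62 ± 0.14; adjusted p = 2.41e-11). Day-1 and fibroblast arrays overlapped. Bag3, which joins HSP70 to small heat shock proteins in selective autophagy, had 8.07, 8.02 and 7.98 on the iPS arrays, 7.66, 8.03 and 8.18 on the ES arrays, 10.69, 10.57 and 10.50 on the day-1 arrays and 10.47, 10.58 and 10.65 on the fibroblast arrays. The pluripotent groups overlapped each other and lay below all other arrays, with differences from fibroblasts of -2.54 ± 0.11 in iPS cells and -2.61 ± 0.11 in ES cells.

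Hspb1, or HSP25, the mouse form of HSP27, went the other way: 12.23, 12.09 and 12.12 on the iPS arrays, 11.54, 11.57 and 11.61 on the ES arrays, 11.18, 11.11 and 10.95 on the day-1 arrays and 11.18, 11.04 and 10.96 on the fibroblast arrays. It was called higher in iPS cells (1.09 ± 0.08; limma adjusted p = 1.99e-08) and stood at 0.52 in ES cells. The difference between iPS and ES cells was 0.57 ± 0.08 (adjusted p = 6.17e-05), under 2-fold. Hspb7, a small heat shock protein of heart, differed from fibroblasts by -0.99 in iPS cells and by -0.75 in ES cells. It was called in iPS cells without iPS replicate 1 (-1.09) or fibroblast replicate 3 (-1.06). Hspb11, a transport protein of cilia grouped here by name, was lower in iPS cells (-1.35 ± 0.14) and ES cells (-1.88 ± 0.14). Of the 9 genes on the small heat shock protein list 6 were measured. In iPS cells 1 was called higher and 2 lower, and in ES cells 0 and 4. Shares of all genes are those given above for the group with Bag3. The promoters of Hspb6, Hspb8 and Bag3 are shown because each holds facing heat shock units, in capitals, at positions -120, 2 and 42.
Hspb6, chr7:30553135-30553234, plus strand: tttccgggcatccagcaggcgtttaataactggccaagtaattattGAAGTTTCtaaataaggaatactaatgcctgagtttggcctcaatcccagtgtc
Hspb8, chr5:116422815-116422914, minus strand: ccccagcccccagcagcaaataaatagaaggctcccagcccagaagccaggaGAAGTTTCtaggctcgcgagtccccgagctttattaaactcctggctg
Bag3, chr7:128523533-128523632, plus strand: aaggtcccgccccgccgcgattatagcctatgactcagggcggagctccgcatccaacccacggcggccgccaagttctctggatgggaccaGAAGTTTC

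The other BAG proteins split as well. Bag2, which restrains the ubiquitin ligase CHIP, averaged 6.78 ± 0.06 in iPS cells, 6.39 ± 0.21 in ES cells, 8.43 ± 0.10 in day-1 cells and 8.48 ± 0.20 in fibroblasts (SD, n = 3 each), and was called lower in iPS cells (-1.70 ± 0.11 SE) and ES cells (-2.09 ± 0.11). Fkbp3, a nuclear isomerase, was called higher in iPS cells (1.43 ± 0.08) and ES cells (1.52 ± 0.08). Bag4, which binds death-domain receptors, was called higher in both (1.30 ± 0.08 and 1.49 ± 0.08). Smooth muscle markers, of which 6 of 6 were measured, had mean log2 values of 9.87 to 9.91 in iPS cells, 7.26 to 7.94 in ES cells, 11.40 to 11.46 in day-1 cells and 10.70 to 10.98 in fibroblasts. Summed on the linear scale they were, as log2, 13.16 to 13.21 in iPS cells, 10.26 to 11.17 in ES cells, 14.54 to 14.57 in day-1 cells and 14.18 to 14.40 in fibroblasts. The part of these cells in the small heat shock protein result was not tested.

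ER members were lower on average in pluripotent cells. Fkbp2 was called higher in the deposited values, and Pdia6 in iPS cells and Hyou1 in ES cells passed 2-fold under other scalings. Against fibroblasts, 2 of 6 prolyl isomerases of the ER were called lower and 1 higher in iPS cells. In ES cells 4 were called lower and 1 higher. Of all genes, 29.6% were called lower and 21.8% higher in iPS cells, and 32.1% and 23.4% in ES cells. Fkbp7 had 8.03, 7.93 and 8.03 on the iPS arrays, 6.76, 7.17 and 6.83 on the ES arrays, 10.27, 10.19 and 10.07 on the day-1 arrays and 10.36, 10.83 and 10.82 on the fibroblast arrays. Fkbp14, an isomerase that acts on collagen, had 7.62, 7.54 and 7.57 on the iPS arrays, 6.21, 6.46 and 6.40 on the ES arrays, 9.77, 9.60 and 9.61 on the day-1 arrays and 9.77, 9.92 and 9.98 on the fibroblast arrays. For both genes the ES cells were lowest, the iPS cells lay between, and the fibroblast types were highest. Fkbp7 differed from fibroblasts by -2.67 ± 0.13 in iPS cells and -3.75 ± 0.13 in ES cells (SE; limma adjusted p = 3.46e-10 and 1.05e-11), and Fkbp14 by -2.31 ± 0.08 and -3.53 ± 0.08 (adjusted p = 2.14e-11 and 4.42e-13).

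Ppib, cyclophilin B, a partner of collagen prolyl 3-hydroxylase, averaged 11.57 ± 0.06 in iPS cells, 11.16 ± 0.08 in ES cells, 12.38 ± 0.01 in day-1 cells and 12.50 ± 0.05 in fibroblasts (SD, n = 3 each). It was called lower in ES cells (-1.33 ± 0.06 SE) and stood at -0.92 in iPS cells, and after centring the ES difference was -0.99. Ppic, a secretory-pathway cyclophilin, was called lower in ES cells (-1.55 ± 0.09) and stood at -0.54 in iPS cells. Fkbp2, a small ER isomerase, had 9.84, 9.86 and 9.77 on the iPS arrays, 9.21, 9.39 and 9.16 on the ES arrays, 8.93, 8.93 and 8.98 on the day-1 arrays and 8.25, 8.19 and 8.13 on the fibroblast arrays, 4 levels that did not overlap. It was higher than in fibroblasts by 1.63 ± 0.07 in iPS cells and 1.06 ± 0.07 in ES cells. Without ES replicate 2 the difference in ES cells was 0.99.

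Lectin chaperones, disulfide isomerases and HSP70 proteins of the ER changed less. Of 7 genes 1 was called lower in iPS cells and 2 in ES cells, where 29.6% and 32.1% of all genes were called lower. The 6 lectin chaperones and disulfide isomerases had a median of -0.49 in iPS cells and -0.60 in ES cells. After quantile normalization it was -0.17 and -0.34, and after centring -0.24 and -0.26. Under either scaling 1 of the 6 was called higher and 0 lower in iPS cells. Calr, calreticulin, had 11.35, 11.33 and 11.35 on the iPS arrays, 11.54, 11.65 and 11.58 on the ES arrays, 12.35, 12.31 and 12.39 on the day-1 arrays and 12.31, 12.31 and 12.47 on the fibroblast arrays. Its difference in iPS cells of -1.02 ± 0.07 (SE) was a call lost without fibroblast replicate 3 (-0.96) and under both scalings (-0.68 after quantile normalization, -0.77 after centring). The membrane lectin Canx, calnexin, stood at -0.58 in iPS cells and -0.43 in ES cells. Pdia5, a disulfide isomerase, was called lower in ES cells (-1.57 ± 0.10) and stood at -0.58 in iPS cells. Hspa13, an HSP70 of microsomes, was called lower in ES cells (-1.34 ± 0.09), with -0.997 after centring. Pdia6 (0.87 in iPS cells, 0.53 in ES cells) and Hyou1, the HSP110 of the ER (0.61 and 0.77), lay on the high side, under 2-fold as deposited. Pdia6 was called higher in iPS cells after quantile normalization (1.15) and centring (1.12), and Hyou1 in ES cells after centring (1.11). On a list of 19 lectin chaperones and thiol oxidoreductases 11 were measured, 6 of them members, and 2 were called lower and 0 higher in iPS cells, and 3 lower and 1 higher in ES cells. The gene called higher was Clgn, calmegin, a homologue of calnexin known from testis, with 5.69, 5.82 and 5.56 on the iPS arrays, 7.49, 8.07 and 7.67 on the ES arrays, 5.09, 5.12 and 5.11 on the day-1 arrays and 5.16, 4.95 and 4.94 on the fibroblast arrays. It was the single gene of that list called between iPS and ES cells (-2.05). Tmx4, a membrane thioredoxin, was called lower in iPS cells (-2.0) and ES cells (-1.96).

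The ER promoters are shown for their ER stress element, in capitals, which lies at positions -162 in Calr, -145 in Canx, -98 in Pdia6 and -105 in Dnajc3.
Calr, chr8:84847035-84847134, minus strand: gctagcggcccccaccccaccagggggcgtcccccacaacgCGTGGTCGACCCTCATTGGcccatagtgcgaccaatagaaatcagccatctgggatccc
Canx, chr11:50325760-50325859, minus strand: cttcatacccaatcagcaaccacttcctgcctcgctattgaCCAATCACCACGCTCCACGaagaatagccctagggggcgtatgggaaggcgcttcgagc
Pdia6, chr12:17266450-17266549, plus strand: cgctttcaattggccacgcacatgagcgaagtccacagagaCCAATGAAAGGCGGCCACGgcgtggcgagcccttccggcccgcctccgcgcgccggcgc
Dnajc3, chr14:118937786-118937885, plus strand: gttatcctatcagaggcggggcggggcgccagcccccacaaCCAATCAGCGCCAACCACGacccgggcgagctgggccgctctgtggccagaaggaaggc
These 4 genes share the element and differ in direction, as the values above show for Calr, Canx and Pdia6, and Dnajc3, the ER co-chaperone P58IPK, stood at -0.35 in iPS cells and -0.63 in ES cells.

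J-domain proteins of the ER had lower values in pluripotent cells. All 8 had a difference below 0 from fibroblasts in iPS cells, from -1.85 to -0.35, of which 3 were called. In ES cells all 8 did too, from -1.77 to -0.63, of which 4 were called. Their medians were -0.91 and -0.97, where all genes had -0.35 in both. Of all genes, 29.6% were called lower in iPS cells and 32.1% in ES cells. Dnajb9, or ERdj4, a target of the unfolded protein response, had 7.87, 7.56 and 7.87 on the iPS arrays, 8.62, 8.71 and 8.45 on the ES arrays, 9.13, 9.05 and 9.16 on the day-1 arrays and 9.54, 9.47 and 9.84 on the fibroblast arrays, with no overlap between groups. It differed from fibroblasts by -1.85 ± 0.11 in iPS cells and -1.03 ± 0.11 in ES cells. In ES cells the difference was -0.91 without fibroblast replicate 3 and -0.95 without ES replicate 3. Under quantile normalization the ES difference was -0.77 and under centring -0.68. Dnajc1, an ER membrane protein, was called lower in both (-1.53 ± 0.10 and -1.63 ± 0.10), as was Dnajc18 (-1.30 ± 0.08 and -1.73 ± 0.08), and Dnajb14 in ES cells (-1.77 ± 0.08).

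Lists of genes that act beside these ER members were also mostly lower. Of 26 genes for collagen folding and modification 19 were measured, 4 of them members, with 11 called lower and 0 higher in iPS cells and 15 and 0 in ES cells, against fibroblasts, and medians of -1.56 and -2.81 where all genes had -0.35. Serpinh1, or HSP47, the collagen chaperone, had 9.30, 9.12 and 9.09 on the iPS arrays, 7.07, 7.68 and 7.23 on the ES arrays, 11.53, 11.51 and 11.39 on the day-1 arrays and 11.15, 11.04 and 11.15 on the fibroblast arrays. Its difference from fibroblasts was -1.94 ± 0.13 in iPS cells and -3.79 ± 0.13 in ES cells (SE; limma adjusted p = 4.83e-09 and 5.82e-12). The collagen prolyl hydroxylase subunit P4ha3 differed by -3.99 and -4.63. Between iPS and ES cells 5 were called higher in iPS cells and 0 lower, Serpinh1 (1.85 ± 0.13), P3h2 (1.26), Fkbp14, Fkbp7 and P4ha1 (1.04).

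Of 32 genes of the unfolded protein response 20 were measured, 2 of them members. In iPS cells 9 were called lower and 0 higher (median -0.87), and in ES cells 12 and 0 (median -1.05). These counts rest on the deposited values alone. The median of all genes was -0.35 in both, with 29.6% called lower in iPS cells and 32.1% in ES cells. Xbp1, a transcription factor of the unfolded protein response, averaged 9.58 ± 0.04 in iPS cells and 9.44 ± 0.08 in ES cells. In day-1 cells it averaged 11.42 ± 0.10 and in fibroblasts 11.06 ± 0.09 (SD, n = 3 each). Derl1, of the ER degradation channel, stood at -1.52 in iPS cells and -1.86 in ES cells. Sdf2l1, an ER chaperone component, was the single gene of this list called between iPS and ES cells (1.40). Of 6 heat shock factor genes, 2 were measured, and Hsbp1, which binds heat shock factor 1, was called lower in iPS cells (-1.29 ± 0.07; limma adjusted p = 8.57e-10), with -0.93 in ES cells, while Hsf2 had 0.76 and 0.74. The fibroblast markers given above move with both lists, and their part was not tested.

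**Figure D3:**
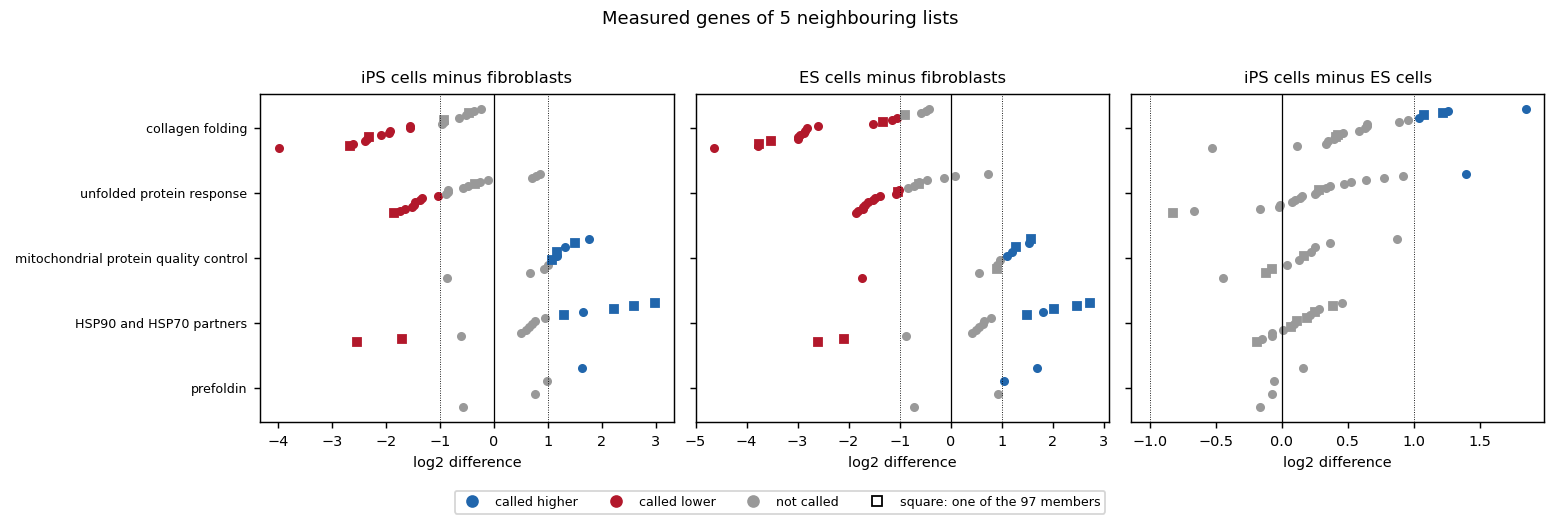
Log2 differences of every measured gene on 5 lists, for iPS cells minus fibroblasts, ES cells minus fibroblasts and iPS minus ES cells; squares are genes among the 97, dotted lines mark 2-fold. Collagen folding and unfolded protein response genes lie mostly left of 0 in the left and middle panels, mitochondrial quality control genes mostly right, with Htra2 as the called exception in ES cells.

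The remaining members by name were Hspbap1, Hspg2, Ppip5k1 and Ppip5k2. Hspbap1 averaged 10.09 ± 0.06 in iPS cells, 9.90 ± 0.09 in ES cells, 8.03 ± 0.04 in day-1 cells and 7.87 ± 0.08 in fibroblasts (SD, n = 3 each), and was called higher in iPS cells (2.22 ± 0.07) and ES cells (2.03 ± 0.07). Hspg2, perlecan, was called lower in iPS cells (-1.21 ± 0.08), stood at -0.90 in ES cells, and was under 2-fold in iPS cells after quantile normalization (-0.98) and after centring (-0.96). Neither kinase was called. Leaving out Hspg2, Ppip5k1 and Ppip5k2, with Hspbap1 kept, changed the count in iPS cells against fibroblasts to 29 higher and 16 lower. No other count changed.

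The comparison of iPS with ES cells sets a reprogrammed line beside an embryonic one. The 6 members called higher in iPS cells were Hspb8, Dnajb4, Cryab, Fkbp14, Fkbp7 and Ppic, a small group of holdases and secretory isomerases with 1 cytosolic J-domain protein. Against fibroblasts all 6 were called lower in ES cells, and Dnajb4, Fkbp14 and Fkbp7 in iPS cells, where the call of Dnajb4 was lost after quantile normalization (-0.95) and centring (-0.91).

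Hspb8, which works with Bag3, had 10.08, 10.03 and 10.07 in iPS cells and 8.16, 8.06 and 7.95 in ES cells, next to 10.57, 10.63 and 10.60 in day-1 cells and 10.50, 10.30 and 10.29 in fibroblasts. Its iPS level lay near that of the fibroblast types and its ES level apart from them. The difference between iPS and ES cells was 2.0 ± 0.08 (SE; limma adjusted p = 2.24e-09), 4.01-fold, with a 95% interval of 1.84 to 2.17. Dnajb4, a cytosolic HSP40 protein, had 8.89, 8.87 and 8.92 in iPS cells and 6.64, 7.33 and 6.84 in ES cells, with 10.68, 10.68 and 10.66 in day-1 cells and 10.02, 10.05 and 10.10 in fibroblasts, and differed by 1.96 ± 0.13 (adjusted p = 1.2e-07). Cryab, alphaB-crystallin of lens and muscle, had 9.28, 9.15 and 9.32 in iPS cells and 7.29, 7.38 and 7.46 in ES cells, with 10.09, 9.94 and 10.15 in day-1 cells and 10.22, 9.87 and 9.92 in fibroblasts, and differed by 1.87 ± 0.10 (adjusted p = 2.25e-08). For Dnajb4 and Cryab the iPS arrays lay between ES cells and both fibroblast types.

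Fkbp14 differed by 1.22 ± 0.08 (limma adjusted p = 1.73e-07) and Fkbp7 by 1.08 ± 0.13 (2.01e-05) between iPS and ES cells. Ppic had 10.36, 10.37 and 10.38 in iPS cells and 9.31, 9.45 and 9.31 in ES cells, and differed by 1.01 ± 0.09 (1.57e-06). The calls of Fkbp7 and Ppic were not kept everywhere: Fkbp7 stood at 0.98 after centring and at 0.996 without ES replicate 1, and Ppic at 0.92 after centring and at 0.99 without ES replicate 1 or 3. Under a test against 2-fold itself (limma's treat), Hspb8, Dnajb4 and Cryab were the 3 that passed. Pdia5 stood just inside 2-fold (0.99 ± 0.10) and passed it without iPS replicate 1 (1.02) or ES replicate 2 (1.11), and Calr4 (0.92 ± 0.13) passed it without ES replicate 1 (1.03).

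In the other direction Dnajc13, an endosomal J-domain protein, had 7.69, 7.87 and 7.62 in iPS cells and 8.27, 8.98 and 8.81 in ES cells, a difference of -0.96 ± 0.23 (limma adjusted p = 0.00298) that passed 2-fold after centring (-1.05), without iPS replicate 2 (-1.03) and without ES replicate 1 (-1.17). Dnajb9 followed with -0.83 ± 0.11. Other genes of the small heat shock protein group were not called: Hspb6 differed by 0.26 ± 0.14, Hspb7 by -0.24 ± 0.12 and Bag3 by 0.07 ± 0.11.

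Markers of other cells moved with these 6 genes. Of 6 smooth muscle markers, 6 were called higher in iPS than in ES cells, of 12 fibroblast markers 6 higher and 1, Dcn, lower, and of 3 measured skeletal muscle markers 2 higher. The summed level of the fibroblast markers, as log2, was 13.70 to 13.77 in iPS cells and 11.78 to 12.31 in ES cells, next to 14.95 to 14.99 in day-1 cells and 15.24 to 15.48 in fibroblasts. Col1a2 averaged 11.98 ± 0.02 in iPS cells and 9.38 ± 0.31 in ES cells (SD, n = 3 each), and Acta2 had 12.38, 12.30 and 12.36 in iPS cells and 9.10, 10.22 and 9.26 in ES cells. Both cell lines were grown on feeder fibroblasts, and the part of these cells in the result was not tested.

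**Figure D4:**
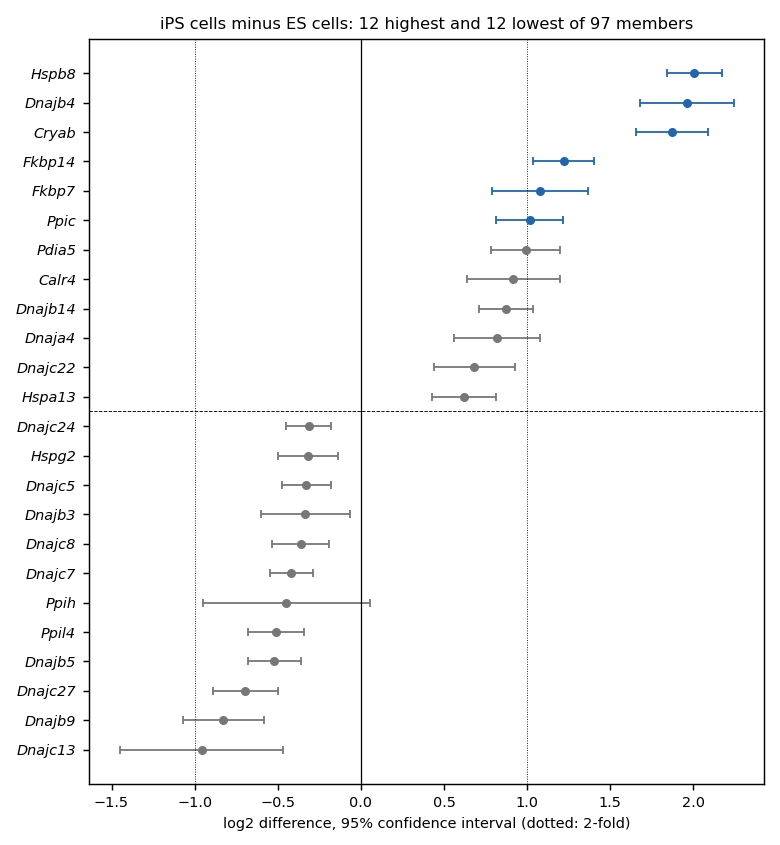
Log2 difference between iPS and ES cells with its 95% interval for the 12 highest and 12 lowest of the 97 members; dotted lines mark 2-fold. Hspb8, Dnajb4 and Cryab stand near 2, apart from Fkbp14, Fkbp7 and Ppic just past 1, and Dnajc13 is lowest at -0.96.

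The comparison of day-1 cells with fibroblasts asks what a day of doxycycline in ES medium goes with. No member was called. The 5 highest differences were those of Hsp90aa1, Fkbp4, Fkbp2 of the ER, the spliceosomal Ppil1 and Fkbp5. Hsp90aa1 stood at 0.94 ± 0.30 (SE; limma adjusted p = 0.0177; 95% interval 0.28 to 1.60), Fkbp4 at 0.78 ± 0.09 (adjusted p = 7.87e-06), Fkbp2 at 0.76 ± 0.07 (2.32e-06), Ppil1 at 0.65 and Fkbp5 at 0.62 ± 0.09 (5.49e-05). All 5 genes of the HSP90 group, put together after values were seen, had a difference above 0, with a median of 0.62. Ppid among them stood at 0.26. The wider list of partners, with 14 measured genes, had a median of 0.045, where all genes had 0.051. Hsp90aa1 was a call without fibroblast replicate 2 (1.20) or 3 (1.01), the library at 9.58 and that at 9.19, and its fibroblast arrays spread over more than 1 log2 unit.

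The TRiC subunits, 7 of 7, had differences from 0.09 to 0.51, the highest that of Cct5 (0.51 ± 0.07). Hspd1 stood at 0.53 ± 0.11, Hspe1 at 0.42 ± 0.09 and Hspa9 at 0.33 ± 0.06. The lowest difference was that of Dnajb6 (-0.99 ± 0.15; limma adjusted p = 9.28e-05; 95% interval -1.31 to -0.67), a call without day-1 replicate 2 (-1.17) or fibroblast replicate 3 (-1.03). Ppih (-0.59), perlecan (Hspg2, -0.58), Ppip5k1 (-0.51), Dnajb9 (-0.51), Dnajb3 (-0.50) and Fkbp7 (-0.49) followed, and the Ppih groups overlapped. The small heat shock proteins Hspb6 (0.17) and Hspb8 (0.24), and Bag3 (0.03), stayed near 0.

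Of the lists, collagen folding alone had calls at day 1, 2 of 19 lower, P4ha2 (-1.64) and P3h2 (-1.48). Over all genes 3.46% were called higher and 4.33% lower. HSP70, HSP90, small heat shock protein, chaperonin, partner, prefoldin, heat shock factor, lectin and thiol, mitochondrial and unfolded protein response lists had 0 calls, 0 higher and 0 lower. Beside these values, 8 of 8 proliferation markers were called higher in day-1 cells than in fibroblasts, 3 of 12 fibroblast markers lower, 2 of 6 smooth muscle and 2 of 3 skeletal muscle markers higher, and of 7 macrophage markers 1 higher and 3 lower. Their part in the differences was not tested.

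**Figure D5:**
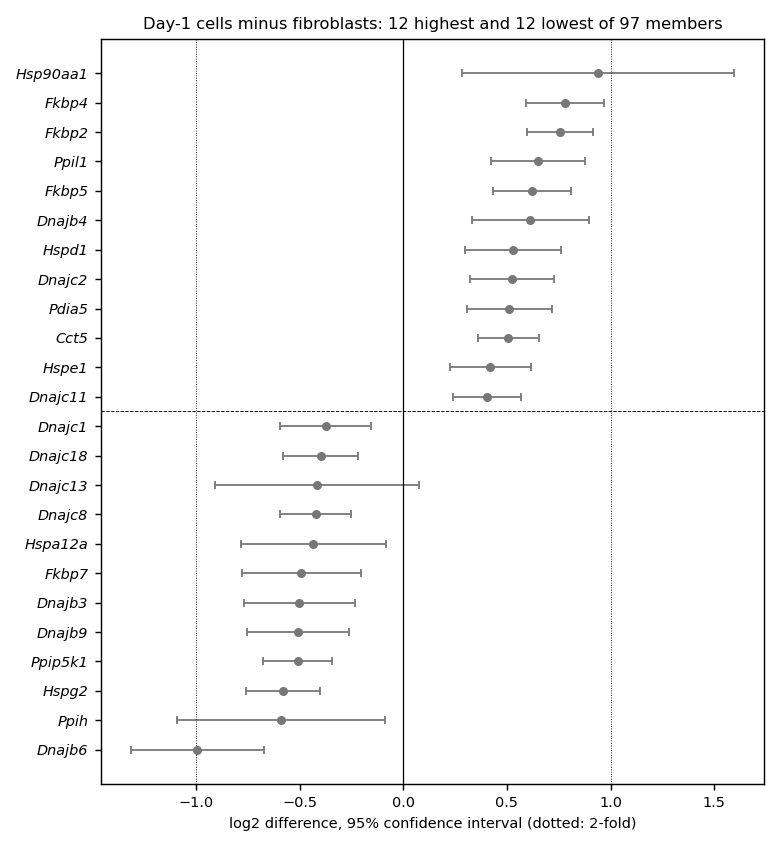
Log2 difference between day-1 cells and fibroblasts with its 95% interval for the 12 highest and 12 lowest of the 97 members; dotted lines mark 2-fold. Hsp90aa1, with the widest interval, is highest at 0.94, and Dnajb6 is lowest at -0.99.

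Between iPS and day-1 cells the highest differences were those of Dnajc6 (3.15 ± 0.12), Dnajb6 (2.34 ± 0.15), Dnajc21 (2.28 ± 0.07) and Fkbp4 (2.20 ± 0.09), and the lowest those of Hspb6 (-3.53 ± 0.14), Bag3 (-2.57 ± 0.11), Fkbp7 (-2.18 ± 0.13) and Fkbp14 (-2.08 ± 0.08). Ppih (2.09 ± 0.23), Hspbap1 (2.06 ± 0.07), Dnajc8 (2.05 ± 0.08) and Fkbp5 (1.98 ± 0.09) followed on the high side, and Dnajb4 (-1.77 ± 0.13), Bag2 (-1.65 ± 0.11), Dnajc25 (-1.42 ± 0.10) and Dnajb9 (-1.34 ± 0.11) on the low side. Ppia (1.16 ± 0.09) and Calr4 (1.03 ± 0.13) were also called higher. Calr4 values were low, with means of 5.44 in iPS cells and 4.40 in day-1 cells. The Calr4 call was lost without day-1 replicate 1 (0.95) or iPS replicate 2 (0.94), and its difference stood at 0.9997 after quantile normalization. Calr was called lower (-1.01 ± 0.07), a call lost without day-1 replicate 3 (-0.98) or iPS replicate 2 (-0.997), and under either scaling (-0.75).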

How the data were processed

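RNA of 12 samples was prepared, per the labels' protocols, with a whole-transcript terminal labelling kit from Affymetrix. The authors deposited 1 table of values for 10360 probe sets, read here as log2 values from their range of 2.43 to 13.64. The sources used here do not give their normalization. The smallest range of a probe set over the arrays is 0.509, so genes that vary little may have been left out before deposit, and no count of calls stands for a whole genome. The number of arrays limits the precision.

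Gene symbols came from the platform annotation: 9542 probe sets carried 1 symbol, 344 several and 474 none, and of 3 genes with more than 1 probe set the one with the highest mean was kept, which left 9539 genes. Differences were fitted with limma 3.58.1 (R 4.3.3) on group means over all 12 arrays, with eBayes and Benjamini-Hochberg adjustment, and the fit was tested on simulated data. Tables were joined with pandas 2.3.3 in Python 3.11.15 and plotted with matplotlib 3.10.9. Alternatives were quantile normalization, centring, leaving out the lowest 25% of genes, array weights, a replicate block, a trended and robust prior, fits on the compared groups alone, no minimum fold, treat at 2-fold, and each array left out in turn. Promoters came from RefSeq (GRCm38.p6), matched by Entrez gene identifier.

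The members and gene lists were chosen with earlier results of these data known, and the roles used to order the results were put together after values had been seen. Any member could be named. Values on each array are given for the 10 members with the widest range of group means, the widest of each family and a few well-known chaperones, and each comparison names up to 8 called members in each direction. Whether probes separate genes from near-identical copies was not tested.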

Additional observations from a re-analysis of the deposited data

How the results depend on the processing

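The 12 arrays, 3 to a group, limit what can be called, and a difference near 2-fold can fall on either side of it. Without a minimum fold, members higher and lower were 34 and 18 for day-1 cells against fibroblasts. They were 50 and 46 for iPS cells and 50 and 44 for ES cells against fibroblasts. For iPS against ES cells they were 32 and 18, and for iPS against day-1 cells 51 and 44. Over all 9539 genes these counts were, in the same order, 2966 and 2483, 4004 and 4981, 4121 and 4929, 2858 and 2644, and 3897 and 4954. Fewer members were called lower in iPS cells than in fibroblasts after quantile normalization (11), centring (10) and treat (11), and in iPS than in day-1 cells after each of these (9, 9 and 9), where treat also left 10 higher. Between iPS and ES cells treat left 3 higher and centring gave 4 higher and 1 lower. The cause was not tested. Leaving out each array gave 0 to 1 higher and 0 to 1 lower for day-1 cells against fibroblasts, 28 to 30 and 15 to 18 for iPS cells, 27 to 29 and 21 to 23 for ES cells, 5 to 7 and 0 to 1 for iPS against ES cells, and 22 to 24 and 14 to 18 for iPS against day-1 cells. The replicate block gave the same counts as the fit without it: 0 and 0, 29 and 17, 27 and 22, 6 and 0, and 23 and 17. Replicate numbers did not pair the samples, since of the 15 same-numbered pairs of arrays over these comparisons 0 had deviations from their group means with a correlation over 0.1 (-0.208 to 0.064). Of 54 differences with a call that are named by rule, none reversed under these alternatives. Of their recomputed values 1125 kept the call and 8 lost it, those of Fkbp7, Ppic and Fkbp14 between iPS and ES cells. The 54 were picked as the largest calls without overlap of groups, and dropping the minimum fold cannot end a call. So these numbers do not stand for all calls. With some array left out, 6 of 46 member calls ended for iPS cells against fibroblasts and 3 of 49 for ES cells. Between iPS and ES cells 2 of 6 ended, and between iPS and day-1 cells 6 of 40.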
